A study of Mus musculus with 12 samples.

Results

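The regions described here are the 205 wide promoter domains of acetylated histone H3 lysine 27 (H3K27ac) in the regenerating livers of Cox10-/- and wild-type mice. They were chosen from 36387 regions in which H3K27ac was counted, as those annotated within 1 kb of a transcription start and at least 2500 bp wide. They make up 0.563% of the regions, 1.28% of the 15980 promoter regions and 3.14% of the bases covered, and they carry 201 gene names. The width ran from 2501 to 6354 bp with a median of 3001 bp, beside a median of 519 bp over the other 15775 promoter regions. In the tested animals a floxed Cox10 allele was deleted with AAV8-Cre (Cox10-/-), and the animals called wild type carried the same floxed allele and received AAV8-GFP. In both, 70% of the liver was removed 4 weeks after the virus, and what had regrown was sampled on day 2 after that operation. Each genotype had 3 H3K27ac libraries. The labels do not name the promoter that drove Cre and do not say that each library came from its own animal, so p-values measure only the spread between these libraries, which may be technical. Replicate libraries of a genotype differed in reads over all regions by a chi-square of 1.06 to 1.19 per degree of freedom. Read counting alone gives about 1, and libraries of different genotypes differed by 10.2 to 10.6.

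H3K27ac is deposited by the acetyltransferases p300 and CBP on nucleosomes that flank active promoters and enhancers, and is bound by bromodomain proteins that help RNA polymerase II into elongation. At most active promoters the mark forms a narrow block on the first nucleosomes of the gene. At some it spreads over several kilobases, often where a promoter and nearby enhancers are joined, and such stretches are known from genes that define a cell type and from genes that respond to growth signals. Hepatocytes, the main cells of the liver, hold such domains at genes of metabolism and of secreted plasma proteins, and after partial hepatectomy they re-enter the cell cycle through an early wave of transcription factors such as Myc and AP-1. Cox10 makes a step of heme A synthesis, without which cytochrome c oxidase, the last complex of the respiratory chain, is not assembled.

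The wide domains held 126346, 130049 and 126036 reads in the Cox10-/- libraries and 165224, 155050 and 167399 in the wild-type libraries. The least covered domain still held 67 to 87 reads in each Cox10-/- library and 320 to 348 in each wild-type library. Over all regions there were 3282878 to 3385453 reads in Cox10-/- and 3897454 to 4187377 in wild type. The deposited values are reads divided by a size factor of 1.18 to 1.32 in Cox10-/- and 0.730 to 0.782 in wild type, so much of the difference in level between genotypes lies in these factors, whose origin the sources used here do not give. For this reason changes are given on the deposited scale and again after centring each library on its median region. The centring removes a median change of -1.04 (log2) over all regions. The single region named for Cox10 lay in an intron and was no promoter domain. It held 60.3, 46.0 and 65.9 normalised reads in Cox10-/- against 14.6, 17.8 and 12.8 in wild type, and it does not check the deletion. All 8 hepatocyte markers had regions, with Hnf4a among the wide domains. The 81 regions of this list summed to 4987 to 5647 normalised reads in Cox10-/- against 16936 to 17625 in wild type. Of them 77 were called lower and 2 higher, where 87.2% and 4.46% of all regions were. The promoter regions of the list summed to 1894 to 2151 in Cox10-/- against 7162 to 7349 in wild type. No marker of macrophages, endothelial cells, stellate cells, biliary cells, lymphocytes or blood cells had a wide domain. In the same order only 3, 0, 0, 2, 1 and 1 of these markers had any promoter region, so few could have one. Of 16 macrophage and Kupffer cell markers, 11 had no region, Adgre1, Clec4f and Timd4 among them, and the 33 regions of the list summed to 2277 to 2618 normalised reads in Cox10-/- against 3661 to 3810.0 in wild type, with 22 called lower and 6 higher. The promoter regions of 3 of these markers summed to 505 to 581 in Cox10-/- against 430 to 460 in wild type. The part of other cell types in the results was not tested.

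The sequences at the start of the genes that the results turn on are printed first, to set the CG dinucleotides at the start beside the size of the loss. Each is the RefSeq promoter of build GRCm38.p6, the sequence build of mm10, with 250 bases before the start and 50 bases after it, read on the strand of the gene. Lower case letters are the sequence and capitals mark each CG dinucleotide. The first 3 belong to domains with deep losses and few CG dinucleotides. Pck1 (gluconeogenesis) is at chr2:173152823-173153122, plus strand, Serpina1b (alpha-1 antitrypsin, a secreted protease inhibitor) at chr12:103738140-103738439, minus strand, and Cmah (sialic acid hydroxylation) at chr13:24327154-24327453, plus strand.
Pck1: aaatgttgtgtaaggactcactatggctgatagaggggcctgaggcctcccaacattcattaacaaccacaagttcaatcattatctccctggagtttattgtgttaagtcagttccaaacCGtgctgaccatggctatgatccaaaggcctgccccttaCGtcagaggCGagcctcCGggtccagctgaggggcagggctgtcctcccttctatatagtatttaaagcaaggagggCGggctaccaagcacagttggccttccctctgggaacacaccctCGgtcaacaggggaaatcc
Serpina1b: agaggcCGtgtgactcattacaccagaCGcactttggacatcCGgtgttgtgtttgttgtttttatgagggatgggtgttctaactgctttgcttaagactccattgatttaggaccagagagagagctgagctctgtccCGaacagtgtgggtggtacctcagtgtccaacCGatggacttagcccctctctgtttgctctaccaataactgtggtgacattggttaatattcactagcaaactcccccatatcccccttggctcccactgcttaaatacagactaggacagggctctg
Cmah: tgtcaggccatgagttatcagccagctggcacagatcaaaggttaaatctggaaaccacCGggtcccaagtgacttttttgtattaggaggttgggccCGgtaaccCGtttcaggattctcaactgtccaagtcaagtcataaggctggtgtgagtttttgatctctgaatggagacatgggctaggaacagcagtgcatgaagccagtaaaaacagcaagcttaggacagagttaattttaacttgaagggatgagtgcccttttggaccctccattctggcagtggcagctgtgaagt
The next pair also stood at domains with deep losses, but with many CG dinucleotides. Fgfr3 (a receptor of fibroblast growth factors) is at chr5:33722056-33722355, plus strand, and Rbp4 (the plasma carrier of retinol) at chr19:38124762-38125061, minus strand.
Fgfr3: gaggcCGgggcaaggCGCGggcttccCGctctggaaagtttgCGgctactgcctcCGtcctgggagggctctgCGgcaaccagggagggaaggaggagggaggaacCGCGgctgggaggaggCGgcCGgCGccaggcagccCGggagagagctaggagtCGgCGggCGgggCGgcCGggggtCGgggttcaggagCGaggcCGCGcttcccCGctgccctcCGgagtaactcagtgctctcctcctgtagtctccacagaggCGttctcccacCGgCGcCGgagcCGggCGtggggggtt
Rbp4: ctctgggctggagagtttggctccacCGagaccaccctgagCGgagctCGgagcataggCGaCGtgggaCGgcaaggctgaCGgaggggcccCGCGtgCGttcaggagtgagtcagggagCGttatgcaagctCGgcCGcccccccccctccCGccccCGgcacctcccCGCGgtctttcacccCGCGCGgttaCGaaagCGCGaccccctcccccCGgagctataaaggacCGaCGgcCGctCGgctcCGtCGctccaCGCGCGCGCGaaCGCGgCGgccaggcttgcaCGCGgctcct
The last 3 belong to domains near the small end of the losses. Ddit4 (an inhibitor of mTORC1 signalling induced by stress) is at chr10:59951721-59952020, minus strand, Igfbp1 (a secreted binder of insulin-like growth factors) at chr11:7197537-7197836, plus strand, and Plin2 (a coat protein of lipid droplets) at chr4:86670010-86670309, minus strand.
Ddit4: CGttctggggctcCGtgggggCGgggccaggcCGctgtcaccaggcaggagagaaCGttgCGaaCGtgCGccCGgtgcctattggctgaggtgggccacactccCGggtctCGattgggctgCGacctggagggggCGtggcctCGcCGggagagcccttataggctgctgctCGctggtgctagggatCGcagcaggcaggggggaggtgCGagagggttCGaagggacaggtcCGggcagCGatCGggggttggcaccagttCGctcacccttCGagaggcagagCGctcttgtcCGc
Igfbp1: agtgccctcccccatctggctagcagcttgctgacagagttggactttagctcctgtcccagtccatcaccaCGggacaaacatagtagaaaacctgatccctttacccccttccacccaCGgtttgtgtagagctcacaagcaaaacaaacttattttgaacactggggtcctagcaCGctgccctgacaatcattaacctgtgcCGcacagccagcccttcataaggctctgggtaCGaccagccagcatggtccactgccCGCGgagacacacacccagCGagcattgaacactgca
Plin2: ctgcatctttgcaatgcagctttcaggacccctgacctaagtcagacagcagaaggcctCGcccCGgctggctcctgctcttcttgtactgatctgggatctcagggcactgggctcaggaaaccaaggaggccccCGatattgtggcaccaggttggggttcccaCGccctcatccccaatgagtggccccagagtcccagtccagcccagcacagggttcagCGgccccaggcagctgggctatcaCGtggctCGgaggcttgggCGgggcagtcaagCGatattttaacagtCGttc
The widest domain of all spans a microRNA gene, Mir21a, whose main product is printed 5' to 3' with its seed, bases 2 to 8, in capitals. It lies at chr11:86584120-86584141, minus strand (GRCm38.p6).
mmu-miR-21a-5p: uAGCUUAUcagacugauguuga
Among the 8 promoters, Cmah held 3 CG dinucleotides, Serpina1b 5, Pck1 6, Igfbp1 8, Plin2 10, Ddit4 26, Fgfr3 30 and Rbp4 40. The start lay inside the domain for Fgfr3, Ddit4 and Plin2. It lay outside by 25 bp for Rbp4, 49 bp for Cmah, 68 bp for Pck1, 264 bp for Igfbp1 and 663 bp for Serpina1b, so that the printed bases of these 5 lie wholly or mostly beside the domain. Those of Ddit4 also lie mostly beside its domain, whose edge is close to the start, while those of Fgfr3 and Plin2 lie within theirs.

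The widest domains belonged to a microRNA gene, a plasma apolipoprotein and its receptor, and they lost H3K27ac by close to the median of all regions. The Mir21a domain (chr11:86580626-86586980, mm10) was 6354 bp wide and held 1138, 1114 and 985 normalised reads in the Cox10-/- libraries, against 2349, 2269 and 2265 in the wild-type libraries. The groups did not overlap, and the domain was 2.13-fold lower in Cox10-/- (log2 change -1.09 ± 0.06 SE, limma adjusted p = 4.3e-43); after centring the difference was -0.04 and was not called. miR-21 is among the microRNAs that rise in the liver after partial hepatectomy. The Apoe domain (chr7:19693669-19699945) was 6276 bp wide and held 993, 1026 and 919.8 normalised reads in the Cox10-/- libraries, against 2007, 1839 and 1939 in the wild-type libraries. All 3 Cox10-/- values lay below all wild-type values, with a log2 change of -0.98 ± 0.06 (SE). Apolipoprotein E carries lipoprotein remnants to receptors that include the product of Lrp1, whose domain (chr10:127614949-127621038, 6089 bp) held 1029, 959 and 987 normalised reads in the Cox10-/- libraries, against 1957, 2098 and 2060.3 in the wild-type libraries. It too was lower in every Cox10-/- library, with a log2 change of -1.04 ± 0.06. H1f0, a linker histone, had a log2 change of -1.49 ± 0.07 over 5687 bp. Rusc2, an adaptor protein, had -0.61 ± 0.06 over 5665 bp. Rxra, the shared partner of many hepatic nuclear receptors, had -1.47 ± 0.06 over 4836 bp. Slc38a2, a neutral amino acid transporter, had -1.30 ± 0.07, and Anp32a, a nuclear phosphoprotein, -0.67 ± 0.06. The predicted genes Gm7628 and Gm26759 completed the 10 widest with -2.09 ± 0.08 and -0.96 ± 0.06. The Gm7628 domain also covered the start of Plxnb1, and the H1f0 domain that of Gm17753, so the mark at these cannot be assigned to a single gene. After centring the sign turned for Apoe (0.08), Lrp1 (0.01, not called), Rusc2 (0.44), Anp32a (0.39) and Gm26759 (0.09), and stayed negative for Mir21a, H1f0, Rxra, Slc38a2 and Gm7628.

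Nearly every wide domain lost H3K27ac on the deposited scale. Of the 205 domains, 203 (99.0%) were called lower in Cox10-/-, Myc was called higher, and Igfbp1 was not called (limma on log2(value + 1), Benjamini-Hochberg adjusted p under 0.05 over all regions). Most of the background was lower too: 87.2% of all regions and 92.2% of the other promoter regions were called lower, and 4.46% and 1.27% were called higher. The 3 Cox10-/- values lay below the 3 wild-type values at 203 domains, beside 86.4% of all regions and 91.3% of the other promoters. The median log2 change of the wide domains was -1.07, a 2.10-fold loss, with an interquartile range of -1.42 to -0.78. It was -0.86 over the other promoters, -0.98 over 74 regions of the same width away from promoters, and -1.04 over all regions. At 117 domains (57.1%) the loss was at least 2-fold, beside 38.4% of the other promoters, and at 15 domains (7.32%) it was at least 4-fold, beside 5.45%. Fewer cells with an acetylated domain and less acetylation per cell cannot be told apart in whole liver. The authors' deposited table likewise has 203 of the wide domains lower and 1 higher, with a median log2 change of -1.07, and 84.8% of all regions lower.

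Relative to the median region the domains split. After centring, 86 (42.0%) were called lower, 81 (39.5%) higher and 38 neither, where 32.4% of all regions were called lower and 33.6% higher. Among the other promoters 18.6% were called lower and 42.2% higher. Wide domains hold more reads than other promoters. Among 3028 other promoters within the same range of mean level 16.6% were called lower and 59.3% higher, a comparison added after the data were examined. The range is shared but the level is not matched. The median level of the wide domains was still higher, by 1.194 (log2) in Cox10-/- libraries and 1.405 in wild-type libraries on average. The share of all reads in regions that fell within the wide domains was 3.83, 3.84 and 3.84% in the Cox10-/- libraries against 3.99, 3.98 and 4.00% in the wild-type libraries. Of the reads in promoter regions, the wide domains took 6.36, 6.35 and 6.37% in Cox10-/- against 7.01, 7.03 and 7.08% in wild type. Both shares were lower in every Cox10-/- library than in any wild-type library, and they do not depend on the size factors.

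The median loss was larger in wider bins of promoters up to the middle widths and level among the wide domains. The median log2 change was -0.85 over promoters under 1000 bp, -0.89 from 1000 to under 1500 bp, -1.01 from 1500 to under 2000 bp and -1.05 from 2000 to under 2500 bp. It was -1.07 from 2500 to under 3000 bp, -1.06 from 3000 to under 4000 bp and -1.08 at 4000 bp or more. Across the 205 domains the Pearson correlation of width with the log2 change was 0.010, and that of the wild-type density with the change was -0.010. These are descriptions over domains that share the same 6 libraries. Other promoters in the same range of mean level had a median of -0.82 and a median width of 1195 bp, but a lower median level than the domains. The sources used here do not name the libraries in which the regions were called, and the part of that choice in the widths was not tested.

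**Figure D1:**
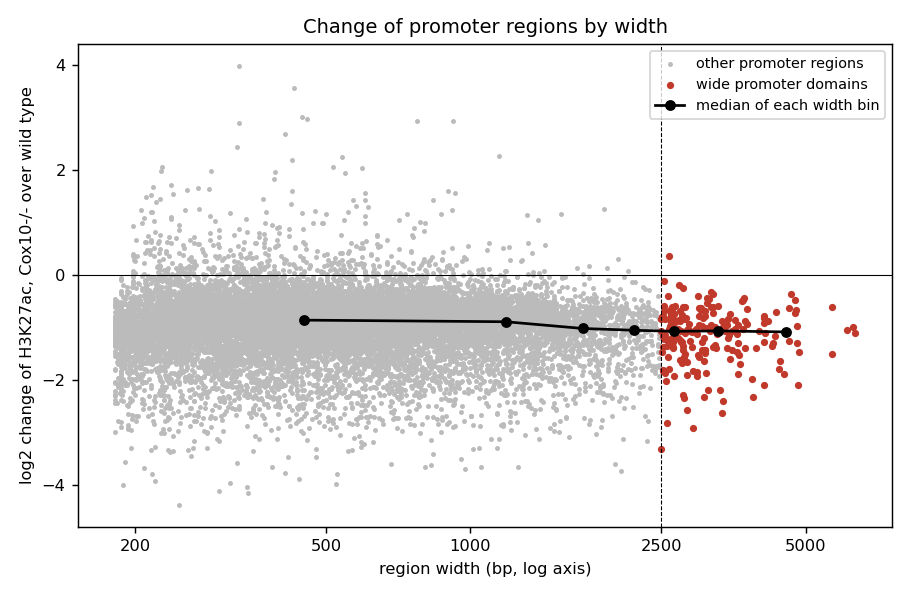
Log2 change of H3K27ac (Cox10-/- over wild type, deposited scale) against region width in bp (log axis) for each promoter region. Red points are the 205 wide promoter domains, grey points the other 15775 promoter regions, the dashed line the width minimum of 2500 bp, and black circles the median of each width bin, which runs from -0.85 under 1000 bp to -1.08 at 4000 bp or more.

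The domains were alike in density in wild-type liver and spread apart in Cox10-/- liver. The median domain held 158, 156 and 144 normalised reads per kb in the Cox10-/- libraries, against 328, 321 and 321 in the wild-type libraries. In the middle 80% of domains the density ran from 77.2 to 86.6 at the low end and 208 to 234 at the high end in the Cox10-/- libraries. In the wild-type libraries it ran from 256 to 269 at the low end and 381 to 391 at the high end. The SD of the log2 density among domains was 0.592, 0.592 and 0.590 in Cox10-/- against 0.248, 0.241 and 0.235 in wild type. It averaged 0.591 ± 0.00124 in Cox10-/- libraries and 0.242 ± 0.00623 in wild-type libraries (SD, n = 3 each). Over the other promoters in the same range of mean level the SD was 0.461 to 0.466 in Cox10-/- and 0.286 to 0.292 in wild type. These promoters are not matched to the domains in level. The median domain had 569 to 590 reads in each Cox10-/- library and 715 to 758 in each wild-type library, and the part of read number in the spread was not tested. Across the domains the log2 change correlated with the density in Cox10-/- (Pearson r = 0.858), a pair of measures that share a term, and not with the density in wild type (r = -0.010).

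Genes of hepatocyte identity and of early growth signalling had a wide domain at a higher share than all genes with a promoter region. Of the 201 domain gene names, 55 belonged to at least 1 of 16 pathway lists with 837 genes, and most belonged to none. Wide domains stood at 11 of 37 immediate early and early growth genes with a promoter region (29.7%), 15 of 66 genes of secreted proteins (22.7%) and 7 of 40 hepatocyte transcription factors and nuclear receptors (17.5%). They stood at 6 of 37 genes listed as signalling feedback inhibitors (16.2%). The counts were 6 of 53 genes of amino acid, urea and glucose metabolism (11.3%) and 6 of 58 of lipid, sterol and bile acid metabolism (10.3%). Over all 9663 gene names with a promoter region the share was 2.08%. None of 72 respiratory chain genes, 67 cytosolic ribosomal protein genes, 30 cell cycle genes, 33 heat shock genes, 31 tumour suppressors or 19 clock genes with a promoter region had one. These are counts of regions, with no test.

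Transcription factors of the hepatocyte were lower, as were 99.0% of all wide domains and 92.2% of the other promoters. All 7 were called lower, with a median log2 change of -1.47, beside -1.13 over the 33 genes of the list with narrower promoter regions only. After centring 6 were still called lower and none higher, where 42.0% of all wide domains and 32.4% of all regions were called lower. Klf15, a factor of gluconeogenesis and amino acid breakdown, held 297, 289.7 and 259 normalised reads in the Cox10-/- libraries, against 1399, 1422 and 1424 in the wild-type libraries (chr6:90466260-90470140). Its groups lay far apart, 5.01-fold lower in Cox10-/- (log2 -2.32 ± 0.08 SE, limma adjusted p = 1.7e-78). Onecut2, a factor of hepatocyte and biliary development, held 286, 261 and 252 normalised reads in the Cox10-/- libraries, against 988, 935 and 969 in the wild-type libraries. It was 3.61-fold lower with no overlap of the groups. Hnf4a, a nuclear receptor that defines hepatocytes, held 501, 465 and 472 normalised reads in the Cox10-/- libraries, against 1252, 1255 and 1259 in the wild-type libraries (chr2:163547203-163550453). The wild-type values were within a few reads of each other, and the log2 change was -1.39 ± 0.07. Rxra averaged 845 ± 56.9 normalised reads in Cox10-/- libraries and 2335 ± 47.5 in wild-type libraries (SD, n = 3 each), the second highest mean of any wide domain. Prox1, a homeobox factor of liver development, had a log2 change of -1.27. Nr2f2, an orphan nuclear receptor, had -0.98, which became 0.07 after centring and was then not called. The list leaves out the regulators Hhex, Ahr and Rara, which also had wide domains. Of these, Rara was called lower after centring, and Hhex and Ahr were not called.

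Metabolic enzymes had the deepest median of any list. The 6 domain genes of amino acid, urea and glucose metabolism were all called lower, with a median log2 change of -1.83, and 5 were called lower after centring. Of all wide domains 99.0% were called lower, and 42.0% after centring, beside 87.2% and 32.4% of all regions. Pck1, the enzyme that commits oxaloacetate to gluconeogenesis, held 106, 119 and 89.4 normalised reads in the Cox10-/- libraries, against 733, 709 and 773 in the wild-type libraries (chr2:173153141-173155716). Every Cox10-/- value was under every wild-type value, 7.02-fold lower on average (log2 -2.81 ± 0.10 SE, limma adjusted p = 2.5e-75). Mat1a, which makes S-adenosylmethionine in the adult liver, held 346, 301 and 269 normalised reads in the Cox10-/- libraries, against 1330.3, 1305 and 1272 in the wild-type libraries (chr14:41105053-41109149). It was 4.28-fold lower, and replicate 1 was the highest of the 3 Cox10-/- values. Slc25a13 (citrin, the mitochondrial aspartate-glutamate carrier) had a log2 change of -2.18, Tat (tyrosine aminotransferase) -1.55, Tdo2 (tryptophan dioxygenase) -1.49 and Gpt2 (mitochondrial alanine aminotransferase) -1.14. The Gpt2 domain was the one not called after centring (-0.09). The 47 genes of the list without a wide domain had a median of -1.71 at their promoters.

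Genes of secreted plasma proteins ranged from one of the deepest losses to the domain with no called change. Of 15, 14 were called lower with a median log2 change of -1.25, and after centring 8 were called lower and 6 higher. Over all wide domains 99.0% were called lower before centring, and 42.0% lower and 39.5% higher after it. Over all regions these shares were 87.2%, 32.4% and 33.6%. Serpina1b held 103, 107 and 86.4 normalised reads in the Cox10-/- libraries, against 786, 731 and 727 in the wild-type libraries (chr12:103734619-103737526). It was 7.55-fold lower (log2 -2.92 ± 0.10 SE, limma adjusted p = 6.3e-78), and since it has near-identical neighbouring copies, reads may be split among them and the value is uncertain. Hp (haptoglobin, which binds free haemoglobin) held 159.8, 157 and 151 normalised reads in the Cox10-/- libraries, against 819, 745 and 729.8 in the wild-type libraries. The Cox10-/- values differed by under 10 normalised reads and stood 4.88-fold below the wild-type mean. Rbp4 held 246, 249 and 229.6 normalised reads in the Cox10-/- libraries, against 1133, 1072 and 1079 in the wild-type libraries. All 3 Cox10-/- libraries were again lower, 4.52-fold on average. Fgg (a fibrinogen chain) had a log2 change of -1.82, F2 (prothrombin) -1.56, Gc (the vitamin D binding protein) -1.56, Cp (ceruloplasmin, the copper ferroxidase) -1.29 and Igfbp4 -1.25. At the other end Itih2 had -0.78, Apoa5 (a regulator of plasma triglycerides) -0.71 and Angptl4 (a lipoprotein lipase inhibitor) -0.53 on the deposited scale, and 0.27, 0.35 and 0.52 after centring. The list's 51 genes with narrower promoter regions only had a median of -1.83.

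Igfbp1 was the domain whose genotypes overlapped. It held 457, 396 and 378 normalised reads in the Cox10-/- libraries, against 463, 438 and 426 in the wild-type libraries (chr11:7194984-7197523). The highest Cox10-/- value lay above 2 of the wild-type values, and the log2 change of -0.11 ± 0.08 (SE) was not called (limma adjusted p = 0.20). Without Cox10-/- replicate 1 it was -0.19 and called (adjusted p = 0.042), and after centring it was 0.94, higher in Cox10-/-. Igfbp1 is induced in liver by fasting, by partial hepatectomy and by stress signalling.

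The apolipoprotein cluster on chromosome 7 held 3 wide domains side by side. The differences between them were not tested. The Apoc2 domain (chr7:19675347-19678006) had a log2 change of -0.73 ± 0.08 (SE), the Apoc4 domain (chr7:19679360-19682324) -1.12 ± 0.08 and the Apoe domain -0.98 ± 0.06. Apoc2, the cofactor of lipoprotein lipase, averaged 412 ± 19.3 normalised reads in Cox10-/- libraries and 683 ± 12.6 in wild-type libraries (SD, n = 3 each). Apoc4, a minor apolipoprotein, averaged 436 ± 17.9 normalised reads in Cox10-/- libraries and 947 ± 35.4 in wild-type libraries. After centring Apoc2 was called higher (0.32), Apoe was at 0.08 and Apoc4 at -0.07, which was not called.

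Lipid and bile genes lay between these groups. All 6 were called lower, with a median log2 change of -1.31, and after centring 4 were called lower and 2 higher. Over all wide domains 99.0% were called lower before centring, and 42.0% lower and 39.5% higher after it. Over all regions these shares were 87.2%, 32.4% and 33.6%. Abcc2, the canalicular exporter of conjugated bilirubin, had a log2 change of -1.43. Dgat2 (triglyceride synthesis) had -1.38 and Abcb4 (the phosphatidylcholine flippase of bile) -1.25, and all 3 were still called lower after centring. Plin2 held 738, 818 and 707 normalised reads in the Cox10-/- libraries, against 925, 946 and 933 in the wild-type libraries (chr4:86667884-86671062). The groups did not overlap but lay close, 1.24-fold apart (log2 -0.31 ± 0.07, limma adjusted p = 2.2e-05), and after centring Plin2 was higher in Cox10-/- by 0.74.

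Immediate early and early growth genes had the smallest median loss of the 6 lists with at least 6 wide domains. Of 11, 10 were called lower and Myc higher, with a median log2 change of -0.71, beside -0.56 over the 26 genes of the list with narrower promoter regions only. After centring 8 were called higher and 1 lower. Over all wide domains 99.0% were called lower before centring, and 39.5% higher and 42.0% lower after it. Over all regions these shares were 87.2%, 33.6% and 32.4%. Myc, the transcription factor of cell growth, held 747, 699.7 and 630.3 normalised reads in the Cox10-/- libraries, against 563, 512 and 543 in the wild-type libraries (chr15:61984658-61987256). It was the one wide domain at which every Cox10-/- value exceeded every wild-type value, 1.28-fold higher on average (log2 0.36 ± 0.08 SE, limma adjusted p = 7.7e-06). Id1, an inhibitor of basic helix-loop-helix factors, held 736, 698 and 661 normalised reads in the Cox10-/- libraries, against 954, 892 and 924 in the wild-type libraries (chr2:152736273-152739251). The groups did not overlap, and the log2 change of -0.40 on the deposited scale turned to 0.65 after centring. Fosl2, an AP-1 subunit, held 887, 822 and 796 normalised reads in the Cox10-/- libraries, against 1207, 1164 and 1149 in the wild-type libraries. Junb, another AP-1 subunit, held 524, 534 and 461 normalised reads in the Cox10-/- libraries, against 805, 849 and 833 in the wild-type libraries. Both stood lower in every Cox10-/- library, with log2 changes of -0.49 and -0.71, and turned to 0.56 and 0.34 after centring. Ier2 had -0.60, Mcl1 (an anti-apoptotic BCL2 relative) -0.78, Klf9 -0.83, Zfp36l2 -0.98 and Zfp36 (a protein that destabilises mRNAs) -1.03. Klf13 had -1.42, and it was the one called lower after centring (-0.37).

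The list of signalling feedback inhibitors followed with a median of -0.98. It counts Irs2, which passes insulin signals on and is no inhibitor. All 6 domain genes of the list were called lower, and after centring 2 were called higher and 1 lower. Over all wide domains 99.0% were called lower before centring, and 39.5% higher and 42.0% lower after it. Over all regions these shares were 87.2%, 33.6% and 32.4%. Smad7, which blocks TGF-beta receptors, averaged 849 ± 56.1 normalised reads in Cox10-/- libraries and 1178 ± 54.6 in wild-type libraries (SD, n = 3 each). Its log2 change was -0.47 on the deposited scale and 0.58 after centring. Dusp6, a phosphatase of ERK, had -0.83 and 0.22 on the same scales. Ptch1, the receptor that restrains hedgehog signalling, had -1.20 and -0.15. Socs3 (cytokine signalling) had -0.95, Irs2 (an insulin receptor substrate) -1.004 and Errfi1 (an inhibitor of EGF receptors) -1.06, and these 3 were not called after centring.

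**Figure D2:**
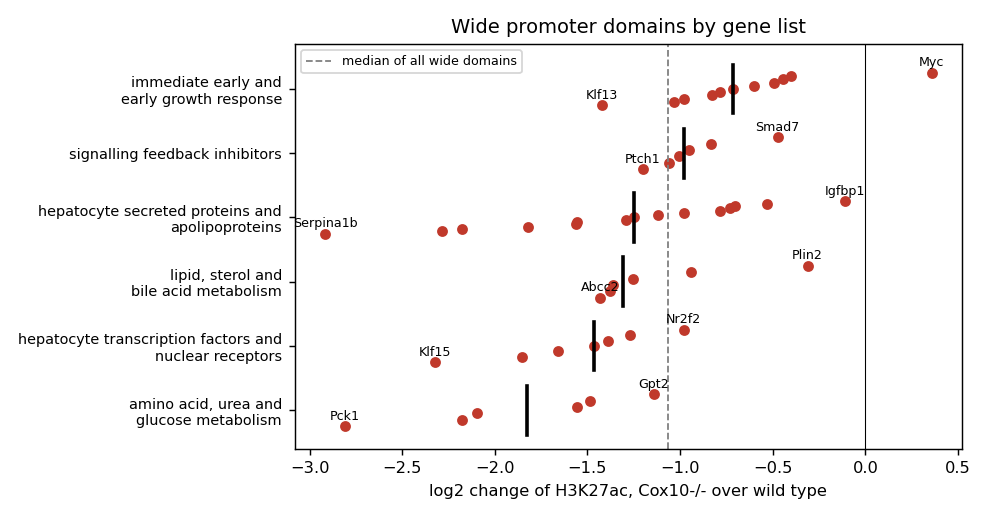
Log2 change of H3K27ac (Cox10-/- over wild type, deposited scale) at the wide promoter domains of 6 gene lists, 1 red point per gene, with the list's median as a black bar, the median of all wide domains (-1.07) as a dashed line, and the genes at the ends named. The medians run from -0.71 for immediate early genes to -1.83 for amino acid, urea and glucose metabolism.

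Single members came from other lists. Brd2, a bromodomain protein that binds acetylated histones, was the only wide domain among 72 chromatin genes with a promoter region. It held 1221, 1102 and 1029.6 normalised reads in the Cox10-/- libraries, against 1849, 1727 and 1788 in the wild-type libraries, the groups did not overlap, and the log2 change was -0.68, which turned to 0.37 after centring. Ddit4 was the only wide domain among 29 genes of ATF4 and mitochondrial stress and held 582, 546 and 509 normalised reads in the Cox10-/- libraries, against 604, 608 and 658 in the wild-type libraries (chr10:59949072-59951792). Its highest Cox10-/- value lay just under the lowest wild-type value, and the log2 change of -0.19 ± 0.08 was called (limma adjusted p = 0.015). The call was lost without wild-type replicate 3 (-0.15, adjusted p = 0.12), and after centring Ddit4 was higher by 0.86. The 28 other genes of that list had a median of -0.25 at narrower promoters. Gpx1 (glutathione peroxidase) had -0.95 and Actn4 (an actin crosslinker) -0.91, with 0.10 and 0.15 after centring.

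**Figure D3:**
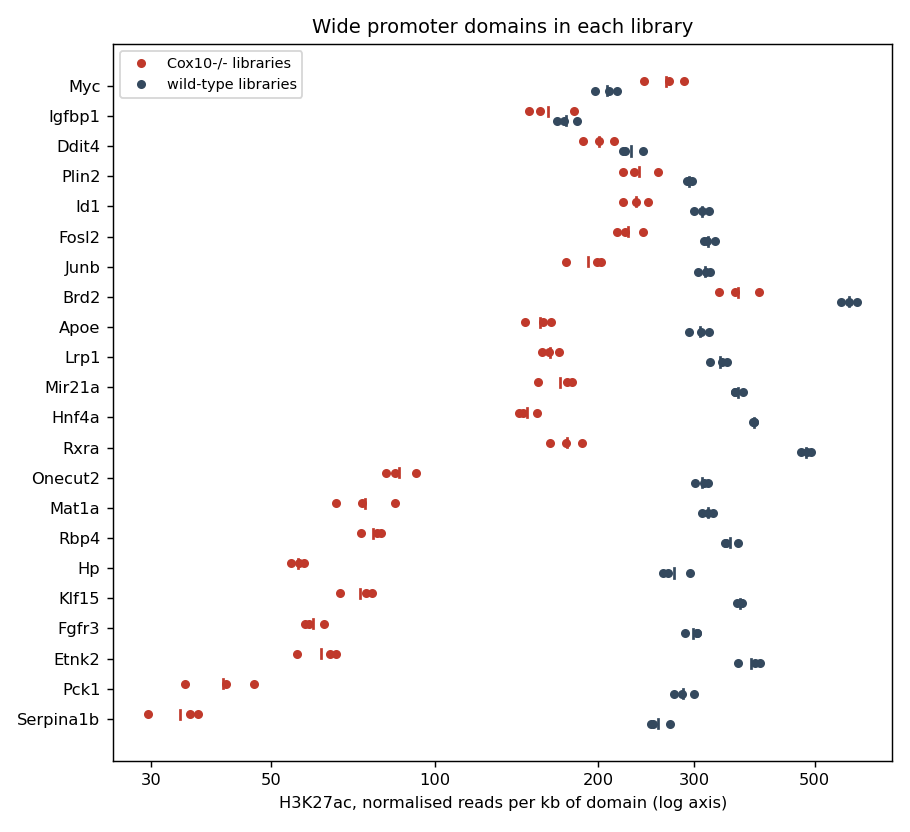
H3K27ac in normalised reads per kb of domain (log axis) at 22 wide promoter domains, with Cox10-/- libraries (red) above wild-type libraries (blue) in each row and group means as vertical ticks. Myc stands higher in Cox10-/-, Igfbp1 overlaps, and the gap widens down to Pck1 and Serpina1b, which were 7.02-fold and 7.55-fold lower.

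Below the lists, the deepest losses among named genes included further liver enzymes. Etnk2, an ethanolamine kinase of phospholipid synthesis, held 220.1, 215 and 186 normalised reads in the Cox10-/- libraries, against 1329, 1212 and 1302 in the wild-type libraries (chr1:133363710-133367059). It was 6.17-fold lower with groups far apart. Ttc36 held 170.0, 137 and 154 normalised reads in the Cox10-/- libraries, against 887, 907 and 947 in the wild-type libraries. The Cox10-/- values were all under 171, and the fold was 5.93. Acnat2, a peroxisomal acyltransferase that joins fatty acids to amino acids, was 5.25-fold lower. Cmah held 181, 207 and 176 normalised reads in the Cox10-/- libraries, against 987, 912 and 949.6 in the wild-type libraries (chr13:24327453-24330241). Its domain was 5.04-fold lower (log2 -2.33 ± 0.08 SE). Fgfr3 held 192, 177 and 179.6 normalised reads in the Cox10-/- libraries, against 929.9, 885 and 933 in the wild-type libraries (chr5:33721822-33724888). It was 4.99-fold lower with the Cox10-/- values within 16 normalised reads of each other. All of these stayed lower after centring, between -1.57 for Etnk2 and -1.27 for Fgfr3. The single largest fold belonged to the predicted gene Gm12406, 9.94-fold lower, at 24.8 normalised reads per kb in Cox10-/- libraries against 249.5 in wild-type libraries.

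Genes with a wide domain often had further regions, whose mean change was set beside that of the domain. Of the 201 genes, 171 (85.1%) also had regions beyond 1 kb from a start, with a median of 6 such regions and up to 63. Of 9462 other genes with a promoter region 36.9% had any, with a median of 3. The log2 change at the domain correlated with the mean change of the other regions of the gene (Pearson r = 0.67 over 171 genes, a description over genes that share libraries), and r was 0.48 over 3494 other genes with a promoter region. The domain minus its surroundings had a median of -0.07, with 98 domains lower than their surroundings and 73 less low. At the other genes the promoter minus its surroundings had a median of 0.18. Regions away from a start carry the nearest gene's name, which need not be the gene they act on. Scp2, a sterol carrier, stood apart with -1.92 at its domain and a mean of -0.38 over 25 other regions. S1pr1, a receptor of sphingosine phosphate, had -1.92 and -0.44 over 7 regions, and Fkbp5, a co-chaperone of the glucocorticoid receptor, -1.67 and -0.55 over 22. The domains of Scp2 and Fkbp5 lay 47158 and 42869 bp from the matched RefSeq start of the gene, so they do not stand for that start. Tmem189 had -0.71 at its domain and 0.71 over 3 regions. The opposite held at H1f0, with -1.49 at the domain and -2.46 over 3 regions. Angptl4 had -0.53 and -1.47 over 3, Ppp1r15b, a regulatory subunit of the eIF2-alpha phosphatase, -1.07 and -1.85 over 4, and 0610043K17Rik -0.97 and -2.06 over 4.

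Most wide domains with a start inside reached further into the gene than upstream of it. The RefSeq start of the gene was matched for 143 domains, and it lay inside the domain at 61 of them. At these the domain covered a median of 864 bp upstream and 2406 bp downstream of the start, and 41 (67.2%) lay mostly downstream, beside 69.4% of 2437 other promoter regions with the start inside. With starts within 1 kb of the edge counted as well, a choice made after the data were examined, 95 of 120 domains (79.2%) lay mostly downstream. The share was 67.8% of 10510 other promoter regions. At the rest of the 143 domains the matched start lay further away. The distance was 3684 bp at Klf15, 11859 bp at Klf13, 21657 bp at Acnat2 and 88036 bp at the wider domain of 3110082I17Rik. Of the 61, domains that lay mostly downstream had a median log2 change of -1.12, the 11 that were about even -0.87 and the 9 mostly upstream -0.69. Among other promoters with the start inside, the medians were -0.79 mostly downstream, -0.78 about even and -0.82 mostly upstream. On the chromosomes with starts given, 17 of 194 wide domains (8.76%) covered the starts of at least 2 genes, beside 1.61% of the other promoters, so the mark at these cannot be assigned to 1 gene. A wider region covers more bases, and the part of width in these shares was not tested.

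The RefSeq promoters of genes with a wide domain were set beside others by their CG dinucleotides, as a description with no test. A promoter was used where its start lay inside the domain or within 1 kb of it. The start lay inside at 61 of 120 such domains, so many of the sequences lie partly or wholly beside the domain. Domains without such a start have no ratio here, among them Klf15, Mat1a, Hp, Ttc36 and Gm12406. The CpG ratio, the number of CG dinucleotides over that expected from the C and G content, had a median of 0.665 over the 118 RefSeq promoters of domain genes. It was 0.802 over 7007 genes with narrower promoter regions and 0.384 over all 32850 RefSeq promoters. A ratio under 0.5 was found at 40 of the 118 (33.9%) and at 14.1% of the genes with narrower regions. Domains with a ratio under 0.5 had a median log2 change of -1.27, and those with 0.5 or more -0.99. After centring, 24 of the 40 were called lower and 11 higher, and of the other 78, 25 were called lower and 38 higher. The genes with narrower regions had medians of -1.07 and -0.80 on the same split. After centring, 354 of their 987 promoters under 0.5 were called lower and 320 higher. Of the 6020 at 0.5 or more, 605 were called lower and 3157 higher. Over all regions 32.4% were called lower and 33.6% higher. Of the printed promoters, Pck1 (0.296), Serpina1b (0.282) and Cmah (0.183) had low ratios and deep losses, while Igfbp1 (0.383) and Plin2 (0.363) had low ratios and small losses. Rbp4 (1.04) and Fgfr3 (0.778) had high ratios and deep losses, and Ddit4 (0.761) a high ratio and a small loss.

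**Figure D4:**
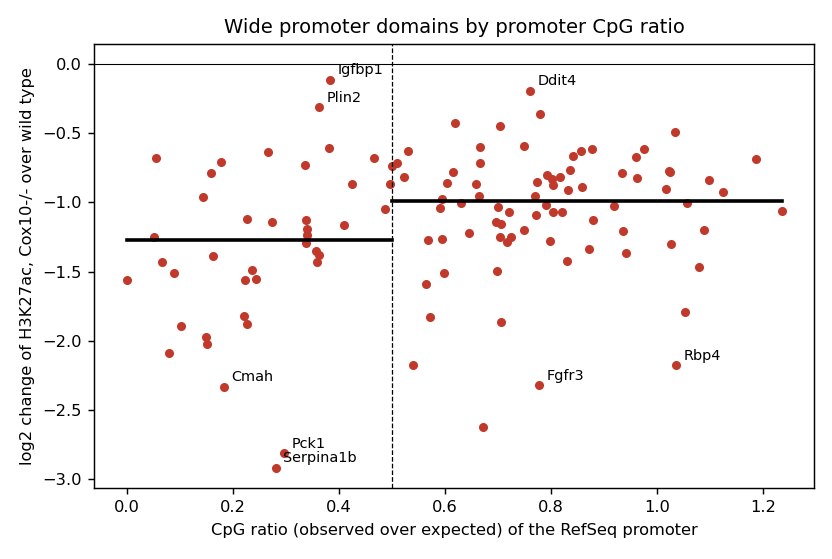
Log2 change of H3K27ac (Cox10-/- over wild type, deposited scale) at wide promoter domains against the CpG ratio of the RefSeq promoter, 1 point per promoter (118). Black lines are the medians, -1.27 under a ratio of 0.5 and -0.99 at 0.5 or more; the named promoters are those whose sequences are printed.

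Both strands of the 118 promoters were searched for 12 short motifs. The ETS motif CCGGAAG was present in 7.63% of them, in 20.3% of promoters of genes with narrower regions and in 8.86% of all RefSeq promoters. The TATA motif TATAAA was present in 9.32%, 6.72% and 13.6% of the same groups, and CCAAT in 35.6%, 38.2% and 37.4%. The AP-1 motif TGANTCA was found at 8 domain genes (6.78%), Serpina1b, Rbp4, Slc25a13, F2, Itih2, Klf9, Actn4 and 1700001C19Rik, and in 4.52% and 7.81% of the other groups. The HNF1 motif GTTAATNAT was found at Gc and Igfbp1 (1.695%), beside 0.585% and 0.801%. The FOXA motif TGTTTAC was found at 6 domain genes (5.08%), Apoe, Junb, Klf9, Dhrs3, Tnrc18 and 2410080I02Rik, beside 2.55% and 3.65%. The CARE motif TGATGNAAT and the C/EBP motif TTGCGCAA were found at none of the 118. Both were rare in the other groups too, CARE in 0.34% and 0.965% and C/EBP in 0.285% and 0.183%. A match is a stretch of letters and not a bound site, and many of the 118 promoters lie partly or wholly beside the domain.

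There were 4 gene names with 2 wide domains each. Those of Id3, an inhibitor of basic helix-loop-helix factors, changed by -0.44 and -0.62 (log2). Those of Tgif1, a repressor of TGF-beta signalling, changed by -0.59 and -0.68. The pairs at Col18a1 (a basement membrane collagen) changed by -1.88 and -1.35, and those at 3110082I17Rik by -1.63 and -1.02. The difference between the domains of a pair was not tested. At the width limit, Spg20 (2501 bp) had a log2 change of -1.07 and Trim8 (2502 bp) -0.83. Just outside it, Sbf2 (2482 bp) had -1.15 and Cdc42bpb (2480 bp) -1.11.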

How the data were processed

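H3K27ac was measured by ChIP-seq in 3 Cox10-/- and 3 wild-type libraries; 6 input libraries were not used. The deposited table holds a signal, read counts per region divided by 1 size factor per library, as found from the values: 100% came out whole within 0.01 reads. Per the labels' protocols, spike-in chromatin was added; whether the size factors use it, and in which libraries regions were called, the sources used here do not say. Per the submitters' processing notes, mm10, BWA 0.7.5, MACS and deepTools 3.5.0 were used, in roles not stated. Beside the signal, the authors deposited a log2 fold change, its SE, a p-value and a test score for each region. The counting base of its coordinates is not stated, and chromosome 16 was not analysed here.

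Of 36446 rows, 59 repeated a position and were dropped. All regions were tested with limma 3.58.1 (R 4.3.3) on log2(value + 1), with a variance trend and no filter; a pseudocount understates changes of low regions. The test was also run on simulated data. Alternatives used edgeR 4.0.16 and DESeq2 1.42.0 on recovered reads, other pseudocounts, thresholds and widths, a replicate block, and leaving out each library. Promoter, start and microRNA sequences were RefSeq tables of GRCm38.p6, matched by symbol. Members, lists and the rule for named genes (widest, deepest falls, rises, highest, list members, largest gaps to the same gene, those at the width limit) were chosen with earlier results of these data known. A few genes that the rule names are not reported here.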

Additional observations from a re-analysis of the deposited data

How the results depend on the processing

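Scaling decided the direction. With edgeR's TMM 86 domains were lower and 81 higher (median log2 change -0.0160), and with DESeq2's own size factors 82 and 73 (-0.0121), as these remove the common shift; both tools with the deposited size factors gave 203 lower and 1 higher. Of list genes, 25 were lower and 22 higher after centring, against 53 and 1 before. Among the genes that the naming rule gave, centring reversed Id3 (0.61 and 0.43), Smad7 (0.58), Dusp6 (0.22), Brd2 (0.37), Ddit4 (0.86), Igfbp1 (0.94), Angptl4 (0.52), Plin2 (0.74), Actn4 (0.15), Gpx1 (0.10), Apoe (0.0756), Lrp1 (0.0138), Rusc2 (0.44), Gm26759 (0.0891), Anp32a (0.39), the second domain of 3110082I17Rik (0.0294), Tgif1 (0.46 and 0.38), Trim8 (0.22), Tmem189 (0.34) and 0610043K17Rik (0.0832). Of these, Lrp1, 0610043K17Rik and the second domain of 3110082I17Rik were not called after centring (limma adjusted p = 0.75, 0.15 and 0.56). Domains outside that rule also turned, Id1, Fosl2, Junb and Neat1 among them. Counts follow the width minimum by construction. At 2000 bp 431 domains were lower and 2 higher (180 and 171 after centring), at 3000 bp 103 and 0 (43 and 41), and at 4000 bp 30 and 0 (13 and 13). The read share of the domains, Cox10-/- minus wild type, was -0.154 percentage points, and -0.298, -0.0818 and -0.0227 at these widths. Leaving out 1 library gave 202 to 204 domains lower, a median of -1.09 to -1.02, and 82 to 87 lower and 75 to 80 higher after centring. Other pseudocounts, the filter, the stricter threshold and kept repeats changed none of these counts by over 1.5 times. Same-numbered libraries did not deviate together (correlations -0.001, 0.007 and 0.005), and with the replicate number as a block 203 domains were lower and 1 higher, and 86 and 81 after centring. Every wide domain held 67 reads or more in every library; the part of counting error in small changes was not tested.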

Other observations

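The wide domains outside the pathway lists were picked for the sentences below after their values were seen, by function. Both abundant nuclear long noncoding RNAs of the paraspeckle and speckle locus on chromosome 19 had a wide domain. Malat1 held 417, 404 and 374 normalised reads in the Cox10-/- libraries, against 734, 716 and 719.6 in the wild-type libraries (chr19:5799958-5802623), and Neat1, the scaffold of paraspeckles, held 733, 712 and 659 normalised reads in the Cox10-/- libraries, against 1165, 1145 and 1200.1 in the wild-type libraries (chr19:5841971-5845455). At both the Cox10-/- values lay under the wild-type values without overlap, with log2 changes of -0.86 ± 0.08 and -0.74 ± 0.07 (SE), which turned to 0.19 and 0.31 after centring. Gm15441, a noncoding RNA antisense to Txnip, held 561, 516 and 443 normalised reads in the Cox10-/- libraries, against 563, 627 and 603 in the wild-type libraries. Its log2 change was -0.24 ± 0.08 on the deposited scale and 0.81 after centring, and the mark of the overlapping genes cannot be told apart.

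Regulators outside the lists were called lower on the deposited scale, and Rara and Agtr1a also after centring. Rara, a retinoic acid receptor, had a log2 change of -1.36 (-0.31 after centring), and Agtr1a, the angiotensin II receptor, -1.68 (-0.63). Ahr, the aryl hydrocarbon receptor, had -1.10 (-0.05), and Hhex, a homeobox factor of early liver development, had -1.12 (-0.07); neither was called after centring. Among carriers of the plasma membrane, Slc29a1, a nucleoside transporter, averaged 355 ± 4.97 normalised reads in Cox10-/- libraries and 1397 ± 48.2 in wild-type libraries (SD, n = 3 each), a log2 change of -1.97, and Slc38a3, a glutamine transporter of hepatocytes, had -1.79. Slc39a14, which takes up zinc, manganese and iron not bound to transferrin, had -1.35. Alad, an enzyme of heme synthesis, averaged 368 ± 30.8 normalised reads in Cox10-/- libraries and 926 ± 19.9 in wild-type libraries, a log2 change of -1.33 (-0.28 after centring). Grhpr (glyoxylate reduction) had -1.59, Cdo1 (cysteine oxidation) -1.20 and Aldh2 (mitochondrial aldehyde oxidation) -1.28. Among genes with small losses, Bcl2l1, an anti-apoptotic relative of BCL2, had -0.67, Mef2d, a MADS-box transcription factor, -0.43 and Elk4, an ETS factor that acts with serum response factor, -0.62; after centring these 3 were at 0.38, 0.63 and 0.43.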
